A study of Mus musculus with 8 samples.

Results

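Mouse induced pluripotent stem cells held in mitosis by nocodazole were compared with cells from an unsynchronised, cycling culture, gene by gene, over the whole transcriptome. The comparison uses 2 mitotic and 2 asynchronous libraries, 4 of the 8 libraries of a series that also holds cells 1 h (early G1) and 3 h (late G1) after release from the drug. Members were chosen by the group named in each sample title, with no use of expression values. The labels give poly(A) RNA sequencing with a strand-marking kit and name 2 independent male clones as the biological replicates, but do not say which clone is which replicate. The titles call the cells ESC while the protocols describe induced pluripotent cells, and no genetic modification is named.

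Both groups grew in medium with 15% serum, LIF at 1000 U/ml, a MEK inhibitor at 1 uM and a GSK3 inhibitor at 3 uM, and the routine cultures stood on irradiated feeder cells. Cells to be arrested were moved to gelatin-coated plates a day earlier at a 1:3 split, received nocodazole at 200 ng/ml for 6 h, and were collected by shaking rounded cells off the plate. No such passage, drug or shake-off is described for the asynchronous group, and the RNA extraction protocol names asynchronous cells only. Whatever the plate surface of the asynchronous cells was, passage, drug exposure, way of collection and cell cycle stage differed together between the groups, and their parts in any difference cannot be told apart. The G1 libraries, whose cells went through the same passage, arrest and shake-off, are given beside the results as levels without a test.

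Nocodazole binds tubulin and stops microtubules from growing, so that chromosomes cannot attach to a spindle and the spindle checkpoint holds the cell before anaphase. Chromosomes are condensed in mitosis and most transcription pauses, so a transcript that decays fast is poorly replaced while a long-lived one remains. Cells also read their own pool of unpolymerised tubulin: when it rises, the factor TTC5 binds the first residues of a tubulin chain as it leaves the ribosome and the messenger RNA being translated is destroyed.

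Of 18245 genes tested, 3883 (21.3%) differed at an adjusted p under 0.05 in edgeR's quasi-likelihood test, the test behind every adjusted p in this text. In mitotic cells 1560 genes (8.55% of those tested) were higher and 2323 (12.7%) lower, and with a change of at least 2-fold 1072 (5.88%) and 2080 (11.4%). Of the called genes, 982 genes fell and 315 rose by more than 4-fold, and 146 fell and 45 rose by more than 16-fold. The median log2 change (mitotic over asynchronous, as everywhere here) over all genes tested was -0.02. None of the 3883 called genes overlapped between groups, against a background in which both mitotic libraries lay above both asynchronous ones for 32.6% of all genes tested and below them for 33.6%.

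Libraries held 20410621 to 24476915 counts, and a floor of 3 counts stood at 0.117 to 0.149 CPM (counts per 1000000 counts of the TMM-scaled library, the unit of every level here), a limit that covers counting error only. The biological coefficient of variation was 0.288 between the asynchronous replicates and 0.182 between the mitotic ones, against 0.0506 in early and 0.0417 in late G1. A change of over 2-fold between replicates was seen for 592 genes in asynchronous cells and 139 in mitotic cells. With 2 libraries in each group an exact permutation test of one gene could not give a p below 0.333, so the calls rest on the spread shared across genes. Leaving out mitotic replicate 1 reduced the calls to 1679 (515 higher and 1164 lower) and leaving out mitotic replicate 2 to 1933 (661 and 1272), whereas 6896 and 5088 were called without asynchronous replicate 1 and replicate 2. Where a count of called list members moved by more than 1.5 times under any such omission, the counts without mitotic replicate 1, mitotic replicate 2, asynchronous replicate 1 and asynchronous replicate 2 follow it in parentheses, in that order.

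**Figure D1:**
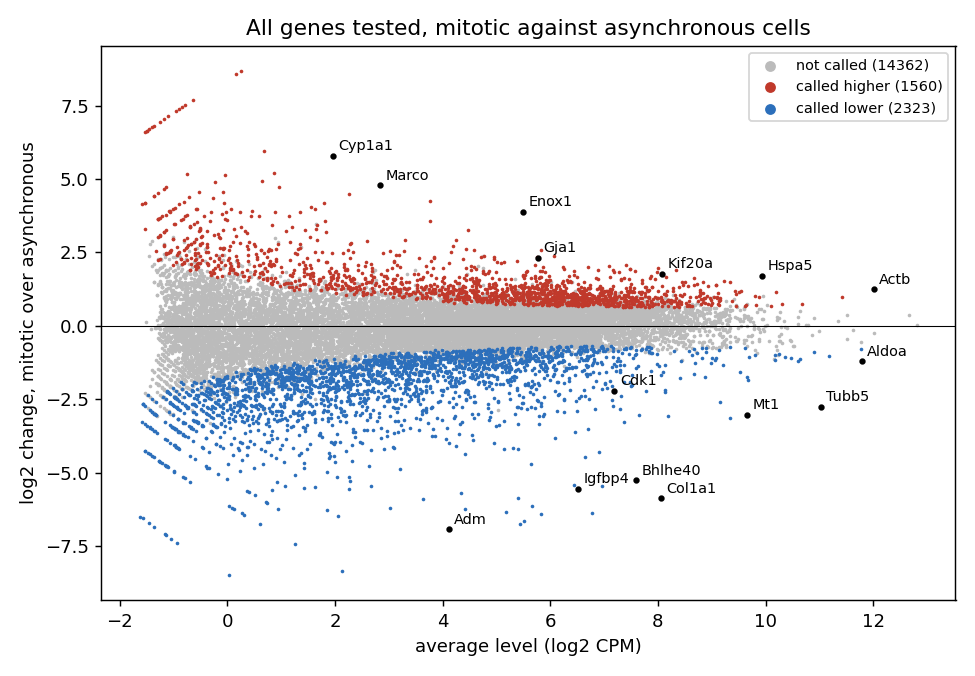
Each point is 1 of the 18245 genes tested, with its average level (log2 CPM) on the horizontal axis and its log2 change, mitotic over asynchronous, on the vertical axis; red points were called higher (1560) and blue points lower (2323). Fibroblast genes such as Col1a1 and low-oxygen genes such as Bhlhe40 lie lowest among well-expressed genes, Tubb5 stands apart among the most abundant ones, and Cyp1a1, Marco and Enox1 are among the labelled rises.

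The cells carried the defining transcripts of pluripotent cells. Pou5f1, the core pluripotency factor OCT4, stood at 1441 and 2025 CPM in asynchronous cells and 2041 and 2159 CPM in mitotic cells. Sox2, its partner, stood at 305 and 246 CPM in asynchronous cells and 241 and 264 CPM in mitotic cells. Neither was called (adjusted p = 0.394 and 0.681). Summed over 29 genes of naive pluripotency, levels were 7696 and 9542 CPM in asynchronous cells, 10093 and 10672 CPM in mitotic cells and 8759.5 to 9611 CPM in the G1 libraries. The summed level of 5 tested Y-linked genes was 166 CPM in asynchronous replicate 1 and 146 CPM in mitotic replicate 1, but 45.7 CPM in asynchronous replicate 2 and 50.5 CPM in mitotic replicate 2. The G1 libraries ran from 51.4 to 59.1 CPM. The replicate 1 libraries of both groups thus stood above the other 6, and none of the 5 genes was called between the groups.

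The asynchronous libraries carried transcripts of fibroblasts, the usual feeder cells, which were far lower in the mitotic libraries. The summed level of 28 fibroblast marker genes was 1936 and 1918 CPM in asynchronous cells, 93.4 and 109 CPM in mitotic cells and 86.9 to 150.4 CPM in the G1 libraries. Of 26 tested markers 22 fell and 0 (0, 1, 1, 0) rose, with a median log2 change of -3.91. Both asynchronous libraries held a like amount, and all 6 libraries of gelatin-plated, arrested cells held little. In bulk RNA fewer cells of a type and less RNA per cell cannot be told apart, and the part of fibroblast RNA in the other falls described here was not tested.

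Genes for the fibrous matrix led the list. Col1a1 (ENSMUSG00000001506, chr11:94936224-94953042, plus strand of GRCm38), a chain of type I collagen, stood at 498 and 542 CPM in asynchronous cells and 7.51 and 10.3 CPM in mitotic cells, a log2 change of -5.87 ± 0.27 (± SE, as after every log2 change; adjusted p = 0.000357). Postn, a matrix protein of connective tissue, stood at 99.04 and 81.8 CPM in asynchronous cells and 0.877 and 0.923 CPM in mitotic cells (log2 change -6.64 ± 0.29, adjusted p = 0.000357). Lox, the enzyme that cross-links collagen, stood at 128 and 97.5 CPM in asynchronous cells and 1.21 and 1.45 CPM in mitotic cells (log2 change -6.40 ± 0.30, adjusted p = 0.000357). All 3 were high in both asynchronous libraries and low in both mitotic ones. The groups lay far apart for each, and the G1 libraries were low as well, at 5.99 to 21.6 CPM for Col1a1. Prrx1, a transcription factor of limb and connective tissue mesenchyme, had 229 and 146 counts in asynchronous libraries and 2 and 2 in mitotic ones. The 4 tested markers that were not called were Twist1, Meox1, Snai2 and Mfap5, and Lum and Fap were too low to test.

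Among called protein-coding genes whose log2 CPM averaged 2 or more, 5 of the 10 largest falls were fibroblast markers: Postn, Prrx1, Lox, Col1a2 and Thbs2. The others included the low-oxygen gene Adm and, of no list used here, C1qtnf3, Tnc and Col8a1. Tnc, the matrix protein tenascin C, went from 92.8 and 78.6 to 0.668 and 0.923 CPM (log2 change -6.75 ± 0.31, adjusted p = 0.000357). Col8a1, a collagen of vessel walls, went from 16.7 and 15.1 to 0.334 and 0.0879 CPM. Asynchronous libraries were high for both. Igfbp4, a secreted binding protein of insulin-like growth factors, was among the 3 falls with the smallest p, at 176 and 181 CPM in asynchronous cells and 4.22 and 3.43 CPM in mitotic cells (log2 change -5.54 ± 0.25, adjusted p = 0.000357). Of 35 tested collagen genes, a group chosen after its values were seen, 18 were lower and 1 higher.

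Genes of the contractile apparatus, which activated fibroblasts and smooth muscle share, changed in part. Of 12 tested, 5 fell and 1 (0, 1, 1, 1) rose. Acta2, smooth muscle actin, stood at 73.9 and 124 CPM in asynchronous cells and 14.3 and 9.14 CPM in mitotic cells (log2 change -3.07 ± 0.35, adjusted p = 0.00364). Des, the muscle intermediate filament desmin, stood at 73.7 and 91.7 CPM in asynchronous cells and 32.0 and 24.96 CPM in mitotic cells. Both fell, with groups apart. Actg2, an enteric smooth muscle actin, stood at 10.3 and 23.6 CPM in asynchronous cells and 2.75 and 2.37 CPM in mitotic cells. Csrp1, a LIM protein bound to actin filaments, went the other way, from 163 and 183 to 381 and 296 CPM. The list's summed level overlapped between the groups (816 and 1018 against 1021 and 774 CPM). The call was lost for Csrp1 without mitotic replicate 1 (adjusted p = 0.278).

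Several macrophage transcripts were higher in the mitotic libraries. Of 17 tested markers 6 rose and 0 fell. Leaving aside Cd68 and Laptm5, which made up most of the list's total in every library, the other markers, 18 genes, summed to 29.2 and 38.7 CPM in asynchronous cells, 77.8 and 78.4 CPM in mitotic cells and 4.87 to 9.76 CPM in the G1 libraries. Setting those 2 aside was decided after their values were seen; the whole list summed to 247 and 317 CPM in asynchronous cells, 347 and 373 CPM in mitotic cells and 258 to 283 CPM in the G1 libraries.

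The called markers with the smallest p were low but followed that order, which not all markers of the list did. Lyz2, lysozyme of myeloid cells, stood at 9.23 and 14.3 CPM in asynchronous cells and 28.4 and 31.3 CPM in mitotic cells and at 0 to 0.758 CPM in G1 (log2 change 1.34 ± 0.28, adjusted p = 0.0206). Adgre1, the macrophage surface antigen F4/80, stood at 0.818 and 0.645 CPM in asynchronous cells and 3.97 and 4.04 CPM in mitotic cells and at 0 to 0.330 CPM in G1 (log2 change 2.44 ± 0.38, adjusted p = 0.00904). Mpeg1, a pore-forming protein of phagocytes, stood at 1.87 and 1.34 CPM in asynchronous cells and 5.55 and 5.80 CPM in mitotic cells. Mitotic libraries were highest and G1 libraries lowest for each. Mitotic and G1 cells were both collected by shake-off, and the source of these transcripts was not tested. Ptprc, the common leukocyte antigen CD45, had 5 and 1 counts in asynchronous, 14 and 8 in mitotic and 0 to 6 in G1 libraries. Aif1 and Cx3cr1 went the other way, with 7 and 8 asynchronous against 3 and 2 mitotic counts and 3 and 6 against 0 and 1. C1qa, Fcer1g and Itgam overlapped between the groups, and Mrc1 in G1 (1.68 to 2.48 CPM) was near its mitotic level (2.21 and 2.37 CPM).

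Marco, a scavenger receptor of macrophages, had the largest log2 rise among called protein-coding genes that averaged a log2 CPM of 2 or more. It had 9 and 13 counts in asynchronous libraries, 295 and 337 in mitotic libraries and 0 to 3 in G1 libraries, or 0.351 and 0.645 CPM in asynchronous cells and 12.3 and 14.8 CPM in mitotic cells (log2 change 4.78 ± 0.40, adjusted p = 0.00183). Aoah, a lipase of phagocytes that inactivates endotoxin, stood at 1.71 and 2.48 CPM in asynchronous cells and 25.04 and 24.96 CPM in mitotic cells (log2 change 3.58 ± 0.31, adjusted p = 0.00183), but unlike Marco it kept 13.5 to 14.9 CPM in the G1 libraries. The part of macrophage RNA in the other rises described here was not tested.

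**Figure D2:**
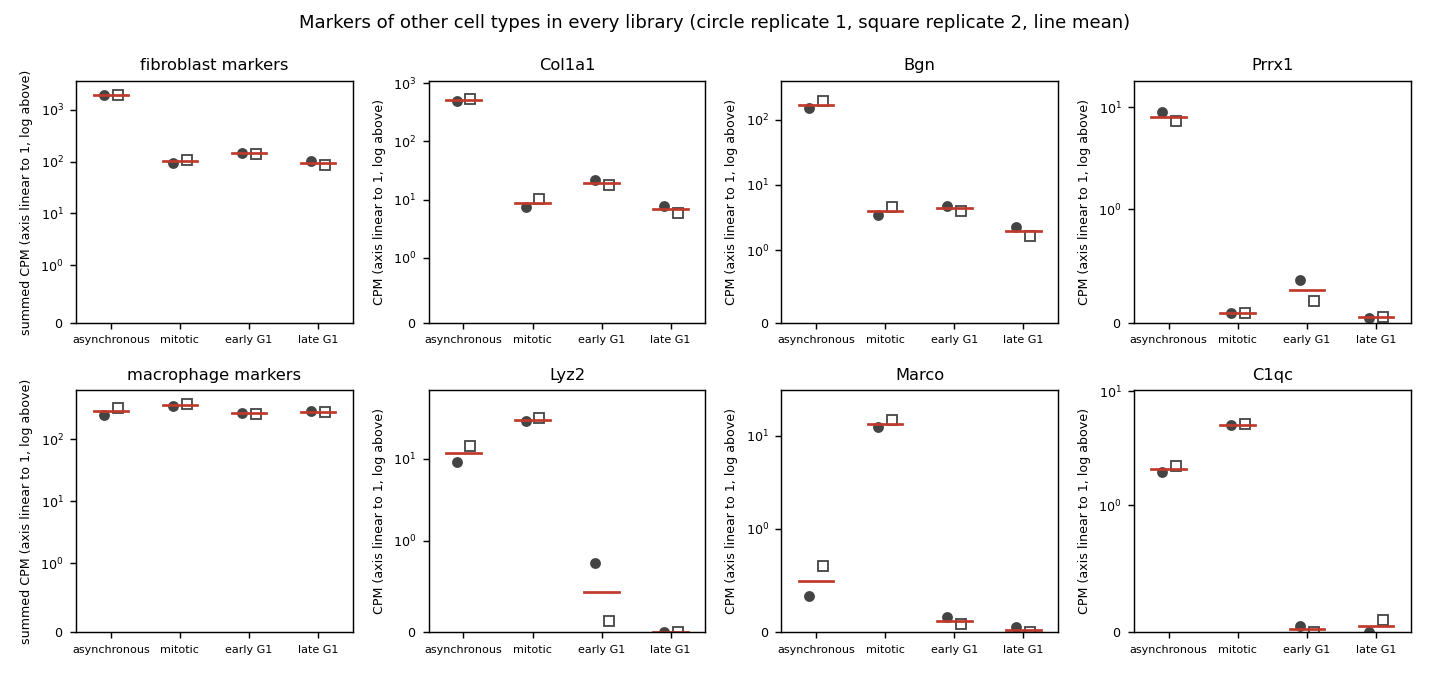
Levels in CPM (axis linear up to 1 and logarithmic above, so that 0 can be drawn) for fibroblast markers (upper row, with the summed list first) and macrophage markers (lower row) in every library; circles are replicate 1, squares replicate 2 and red lines group means. Fibroblast markers were high in the 2 asynchronous libraries, at 1936 and 1918 CPM for the list, and Lyz2, Marco and C1qc were highest in the 2 mitotic ones.

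Of the tubulin messages, the main beta-tubulin and 3 others fell. Of 16 tubulin genes and Ttc5, 4 fell and 0 (0, 0, 0, 1) rose, and the summed level was 5037 and 6584 CPM in asynchronous cells, 2175 and 2247 CPM in mitotic cells and 2579 to 3155 CPM in the G1 libraries. TTC5 binds the residues that the first coding bases encode, and different bases can encode the same residues. The first 12 coding bases of the 3 genes that fell with high levels and of 3 that were not called are shown, in transcripts of GENCODE M21, with the start codon in capitals.
Tubb5: ATGagggaaatc
Tuba1b: ATGcgtgagtgc
Tuba1c: ATGcgtgagtgc
Tuba1a: ATGcgtgagtgc
Tubb4b: ATGagggagatc
Tubb2a: ATGcgcgagatc
Tuba1a, Tuba1b and Tuba1c shared the same 12 bases, and the last 2 of these were called lower. The bases of Tubb5, Tubb4b and Tubb2a differed but encode the same residues, and of these Tubb5 was called lower. Differences between the changes of genes with the same residues were not tested.

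Tubb5 (ENSMUSG00000001525, chr17:35833921-35838306, minus strand), the main beta-tubulin of dividing cells, stood at 3287 and 3955 CPM in asynchronous cells and 529.8 and 548 CPM in mitotic cells, a log2 change of -2.75 ± 0.21, adjusted p = 0.00151. It was among the 6 most abundant transcripts that fell, its mitotic libraries lay closely together, and the groups were far apart. G1 levels were in between, at 1480.1 and 1437 CPM in early and 1057 and 1052 CPM in late G1. Tuba1b (ENSMUSG00000023004, chr15:98931425-98934565, minus strand), a common alpha-tubulin, stood at 279.8 and 531 CPM in asynchronous cells and 134 and 121 CPM in mitotic cells (log2 change -1.67 ± 0.31, adjusted p = 0.015). Tuba1c stood at 115 and 204 CPM in asynchronous cells and 28.6 and 31.8 CPM in mitotic cells (log2 change -2.40 ± 0.31, adjusted p = 0.00484). Their asynchronous replicates differed from each other but stayed above both mitotic ones. Tubg2, a gamma-tubulin of the nucleation complex, stood at 7.17 and 5.70 CPM in asynchronous cells and 1.71 and 0.967 CPM in mitotic cells (log2 change -2.26 ± 0.40, adjusted p = 0.013).

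The other tubulins were not called. Tuba1a stood at 149 and 184 CPM in asynchronous cells and 217 and 216 CPM in mitotic cells (log2 change 0.38 ± 0.20, adjusted p = 0.206). Tubb4b stood at 459.8 and 707 CPM in asynchronous cells and 531 and 554 CPM in mitotic cells (log2 change -0.10 ± 0.25, adjusted p = 0.778). Tubb2a had a log2 change of -0.23 ± 0.30, adjusted p = 0.6. Tuba1a was slightly higher in both mitotic libraries, and the Tubb4b groups overlapped. Ttc5, which reads the nascent chain, had a log2 change of -0.24 ± 0.21, adjusted p = 0.434. Tubulin genes have near-identical copies and pseudogenes, so reads may have been split among them and single values are uncertain; the counting rule for such reads is not given in the sources used here.

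Messages for the mitotic machinery did not move as a block. Of 35 tested genes for mitotic cyclins, kinases, checkpoint proteins and the anaphase-promoting complex (APC), 6 (0, 1, 9, 6) were higher and 10 lower. Of 38 for kinetochore, spindle and kinesin proteins, 3 (1, 2, 12, 6) were higher and 5 (3, 2, 8, 8) lower, with medians of 0.17 and 0.22. Called members of each list thus lay on both sides. Over all genes tested 8.55% were higher and 12.7% lower, and the shares of the second list were near these. The summed levels were alike in both groups, at 4811 and 4989 against 5258 and 4994 CPM for the first list. Mki67, the usual proliferation marker, stood at 378 and 351 CPM in asynchronous cells and 459.7 and 433 CPM in mitotic cells without a call.

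Transcripts of several core regulators of mitosis fell. Cdk1 (ENSMUSG00000019942, chr10:69335146-69352938, minus strand), the kinase that drives entry into mitosis, stood at 231 and 250.1 CPM in asynchronous cells and 50.9 and 53.1 CPM in mitotic cells, a log2 change of -2.21 ± 0.20, adjusted p = 0.00198. Its replicates were close in both groups, which lay far apart. After release its levels were 186 and 176 CPM in early and 133 and 141 CPM in late G1. Fbxo5, the inhibitor EMI1 of the APC, stood at 87.1 and 66.3 CPM in asynchronous cells and 12.2 and 12.9 CPM in mitotic cells (log2 change -2.61 ± 0.24, adjusted p = 0.00222), with 88.6 to 101 CPM in G1. Aurkb, the chromosomal passenger kinase, stood at 134 and 104 CPM in asynchronous cells and 23.5 and 23.1 CPM in mitotic cells (log2 change -2.35 ± 0.23, adjusted p = 0.00242). Mitotic replicates lay close together for all 3. Low levels were also called for Wee1, which holds CDK1 inactive (61.2 and 44.6 against 14.5 and 12.7 CPM), Ube2c, the ubiquitin-conjugating enzyme of the APC (182 and 229.6 against 53.1 and 51.7 CPM), and Bub3, a checkpoint protein (115 and 115 against 39.4 and 42.4 CPM). Fzr1, the late activator CDH1 of the APC, stood at 151 and 208 against 59.6 and 58.9 CPM.

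The APC's early activator went the other way. Cdc20 (ENSMUSG00000006398, chr4:118432901-118437352, minus strand), the target of the spindle checkpoint, stood at 231 and 319 CPM in asynchronous cells and 626 and 584 CPM in mitotic cells (log2 change 1.14 ± 0.22, adjusted p = 0.0169). Mad2l1, the checkpoint protein that binds it, stood at 76.1 and 57.5 CPM in asynchronous cells and 141 and 133 CPM in mitotic cells (log2 change 1.03 ± 0.22, adjusted p = 0.0206). Bub1b, its partner in the inhibitory complex, stood at 231 and 221 CPM in asynchronous cells and 362 and 358 CPM in mitotic cells. Mitotic replicates were close for these rises, and the groups did not overlap. Ccnb1, cyclin B1, was lower at 82.7 and 86.3 against 133 and 137 CPM, whereas Ccnb2 (175 and 181 against 251 and 234 CPM) and Plk1, a mitotic kinase (127 and 142 against 161 and 157 CPM), were not called. Calls were lost for Cdc20, Mad2l1, Bub1b and Ccnb1 without mitotic replicate 1, Mad2l1, Bub1b and Ccnb1 without mitotic replicate 2 and Bub1b with a minimum count of 50 and with upper-quartile scaling (adjusted p from 0.0514 to 0.396).

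In the spindle list Cenpf, an outer kinetochore protein, stood at 168 and 130.2 CPM in asynchronous cells and 52.7 and 60.9 CPM in mitotic cells (log2 change -1.39 ± 0.22, adjusted p = 0.00951). Both its asynchronous libraries were high. Nusap1, a microtubule bundling protein, stood at 153 and 146 CPM in asynchronous cells and 62.4 and 53.3 CPM in mitotic cells. Incenp, the scaffold of Aurora B, stood at 231 and 274 CPM in asynchronous cells and 120.1 and 119 CPM in mitotic cells. Kif20a, a kinesin of the central spindle, was the largest rise of the list at 163 and 81.0 CPM in asynchronous cells and 468 and 367 CPM in mitotic cells (log2 change 1.77 ± 0.34, adjusted p = 0.0163). Cenpf, Nusap1 and Incenp had close replicates, while Kif20a varied between the asynchronous ones. Top2a, the topoisomerase that untangles chromosomes, was named after its values were seen: it stood at 1301 and 1014 CPM in asynchronous cells and 138 and 123 CPM in mitotic cells, a log2 change of -3.14 ± 0.23, adjusted p = 0.00136, and at 344 to 409.7 CPM in G1. The call was lost for Incenp without mitotic replicate 1 and Nusap1 and Incenp without mitotic replicate 2 (adjusted p from 0.0563 to 0.112).

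**Figure D3:**
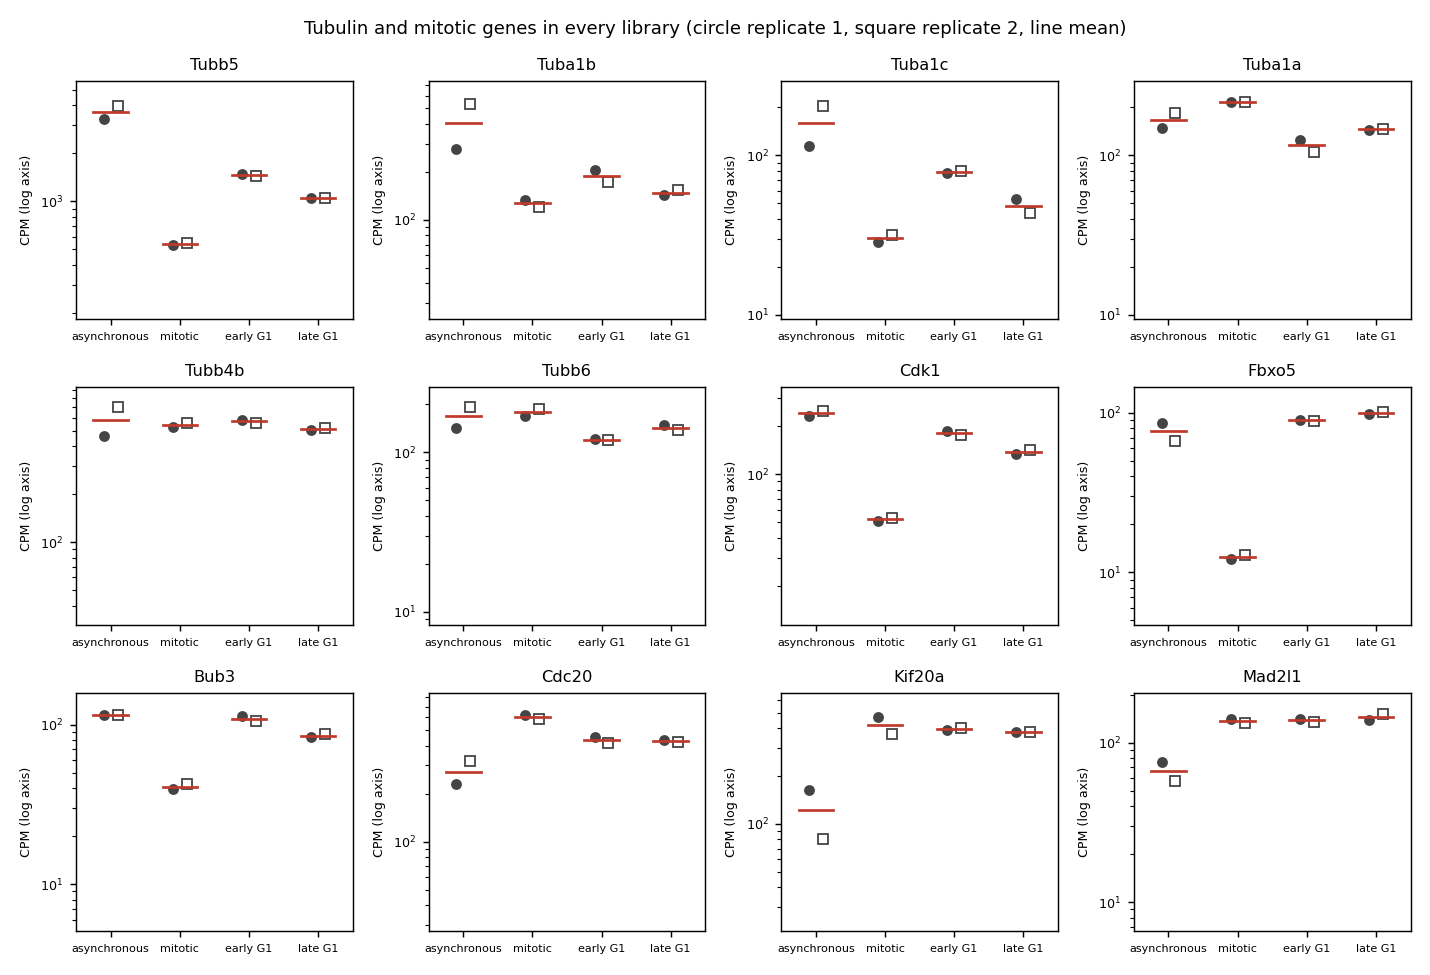
Levels in CPM (logarithmic axis) of 6 tubulin genes and 6 mitotic genes in every library; circles are replicate 1, squares replicate 2 and red lines group means. Tubb5, Tuba1b, Tuba1c, Cdk1, Fbxo5 and Bub3 were lowest in the 2 mitotic libraries, Cdc20, Kif20a and Mad2l1 lay above asynchronous cells, and Tuba1a, Tubb4b and Tubb6 were not called.

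A larger share of long noncoding than of coding genes was called lower, a difference that was not tested. Of 1283 tested, 315 (24.6%) were lower and 63 (4.91%) higher, with a median log2 change of -0.68. Of 14445 protein-coding genes 1845 (12.8%) were lower and 1275 (8.83%) higher, with a median of -0.00436. The median of the noncoding genes was lower too. The share called lower was larger for noncoding genes in each of 6 ranges of average level, for instance 26 of 75 noncoding and 734 of 8186 coding genes (34.7% and 8.97%) at a log2 CPM of 4 or more. Processed pseudogenes, copies whose reads can come from their parent genes, were called lower less often than coding genes, with 57 of 1897 (3.00%). Their share called higher, 170 (8.96%), was near that of coding genes.

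Among named noncoding genes Epb41l4aos had one of the largest falls, from 72.0 and 129 to 8.56 and 11.4 CPM (log2 change -3.33 ± 0.35, adjusted p = 0.00293), and Lockd, a noncoding gene beside the cell cycle inhibitor Cdkn1b, went from 9.31 and 12.8 to 1.29 and 1.45 CPM. Falls were thus several-fold, with groups well apart. Nespas, the antisense transcript of the imprinted Gnas cluster, was the largest rise among those named, from 2.61 and 3.02 to 17.9 and 15.2 CPM (log2 change 2.55 ± 0.29, adjusted p = 0.00342), though without a stated strand setting its reads cannot be told apart from those of the opposite strand. Eprn, a transcript of pluripotent cells, went from 38.1 and 46.8 to 90.9 and 97.3 CPM. The call was lost for Eprn without either mitotic replicate (adjusted p from 0.056 to 0.0705).

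Host genes of small nucleolar RNAs (Snhg genes), which carry these RNAs in their introns and whose spliced products are short-lived, formed a low group that was picked out after its values were seen. Of 13 tested 10 fell, with a median log2 change of -1.54. Snhg12 (ENSMUSG00000086290, chr4:132308623-132311024, plus strand) stood at 109 and 149 CPM in asynchronous cells and 20.1 and 26.1 CPM in mitotic cells (log2 change -2.48 ± 0.26, adjusted p = 0.003) and stood at 81.4 and 86.4 CPM in early G1. Snhg1 stood at 217 and 247 CPM in asynchronous cells and 73.4 and 91.0 CPM in mitotic cells (log2 change -1.50 ± 0.21, adjusted p = 0.0068) and at 213 to 228 CPM in G1, close to the asynchronous level. Snhg11, at 104 and 89.4 CPM in asynchronous cells and 14.4 and 17.2 CPM in mitotic cells, stayed low in G1 (17.9 to 23.9 CPM). All 13 of these genes had a lower fitted level in mitotic cells, and Snhg3, Snhg10 and Snhg14 were not called. Of 52 genes annotated as small nucleolar RNA itself, 20 were lower and 1 higher, but such short RNAs are poorly captured in poly(A) libraries.

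Most targets of the low-oxygen response fell. The hypoxia-inducible factors (HIF) are transcription factors that are destroyed when oxygen is ample and otherwise switch on genes for vessel growth, glycolysis and mitochondrial turnover. Of 30 HIF targets other than glycolytic enzymes, 20 fell and 1 (0, 1, 1, 1) rose, with a median log2 change of -1.83. The summed level was 3567 and 3486 CPM in asynchronous cells, 1311 and 1227 CPM in mitotic cells and 1351 to 1422 CPM in the G1 libraries. Only the asynchronous libraries were high, which is also the pattern of the fibroblast list (1936 and 1918 CPM in asynchronous cells and at most 150.4 CPM elsewhere).

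Bhlhe40 (ENSMUSG00000030103, chr6:108660629-108666925, plus strand), a transcriptional repressor induced by low oxygen, stood at 416 and 337 CPM in asynchronous cells and 8.35 and 11.3 CPM in mitotic cells (log2 change -5.26 ± 0.28, adjusted p = 0.000458). Adm, the vessel hormone adrenomedullin, had 999 and 589 counts in asynchronous and 9 and 4 in mitotic libraries, a log2 change of -6.91 ± 0.42, adjusted p = 0.000738. Loxl2, a matrix cross-linking enzyme, stood at 85.3 and 73.7 CPM in asynchronous cells and 4.47 and 4.17 CPM in mitotic cells (log2 change -4.20 ± 0.25, adjusted p = 0.000705). The groups lay far apart for each of the 3. Ndrg1, a stress protein, stood at 284 and 318 CPM in asynchronous cells and 27.8 and 34.2 CPM in mitotic cells (log2 change -3.28 ± 0.22, adjusted p = 0.00111). Ddit4, the inhibitor REDD1 of mTOR signalling, stood at 508 and 534 CPM in asynchronous cells and 57.8 and 68.1 CPM in mitotic cells (log2 change -3.05 ± 0.21, adjusted p = 0.00111). Bnip3, a receptor for the removal of mitochondria, stood at 114 and 93.9 CPM in asynchronous cells and 11.98 and 12.7 CPM in mitotic cells (log2 change -3.07 ± 0.23, adjusted p = 0.00151). Both mitotic libraries were low for each. Vegfa, the vessel growth factor, went from 146 and 125 to 25.3 and 34.0 CPM, and Egln1 and Egln3, the oxygen sensors that mark HIF for destruction, from 119 and 137 to 31.7 and 38.5 and from 106 and 139 to 14.3 and 18.8 CPM. Kdm3a, a histone demethylase, was the rise in this list, at 172 and 94.8 CPM in asynchronous cells and 350.4 and 269.7 CPM in mitotic cells (log2 change 1.22 ± 0.31, adjusted p = 0.0342). The call was lost for Kdm3a without mitotic replicate 1 (adjusted p = 0.111).

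Most glycolytic genes fell too. Of 26 enzymes and transporters 18 (11, 12, 20, 19) fell and 1 (0, 0, 1, 0) rose, with a median log2 change of -1.19. The summed level was 21646 and 25976 CPM in asynchronous cells, 10685 and 11234 CPM in mitotic cells and 10132 to 10421 CPM in the G1 libraries. The fall thus reached the list's total. Aldoc, an aldolase, stood at 140.4 and 130.2 CPM in asynchronous cells and 20.2 and 15.4 CPM in mitotic cells (log2 change -2.92 ± 0.24, adjusted p = 0.0017). Pfkfb3, which sets the flux through phosphofructokinase, stood at 93.4 and 90.9 CPM in asynchronous cells and 11.8 and 14.6 CPM in mitotic cells (log2 change -2.80 ± 0.23, adjusted p = 0.00172). Eno2, an enolase, stood at 30.4 and 33.2 CPM in asynchronous cells and 4.80 and 4.61 CPM in mitotic cells (log2 change -2.76 ± 0.25, adjusted p = 0.00199). Mitotic libraries were low for each of these 3. The abundant enzymes were called too. Gpi1 went from 1179 and 1381 to 352 and 360.1 CPM. Aldoa went from 4356 and 5521 to 2031 and 2242 CPM, and Ldha, lactate dehydrogenase, from 1907 and 2494 to 923 and 1074 CPM. Of 22 genes of the citric acid cycle and pyruvate dehydrogenase, 1 (0, 0, 3, 2) rose and 0 (0, 0, 1, 0) fell, at a median of 0.18. Calls were lost for Aldoa and Ldha without either mitotic replicate (adjusted p from 0.0733 to 0.181).

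HIF binds the core ACGTG. This motif was searched on both strands in RefSeq promoter windows of 300 bases (250 before to 50 after the start, GRCm38.p6). It occurred in 11 of the 24 glycolytic genes with a window (45.8%), among them 6 of the 17 that were called lower (35.3%), and in 12 of 23 HIF targets with a window. Over all tested genes with a window it occurred in 24.9%, and in 24.7% of those called lower and 24.9% of those not called. A window was at hand for 11938 of 18239 tested genes and for 23 of 30 HIF targets, under 80% of each, so that a comparison of these shares is void. Upstream bases were examined for 5 genes of these lists, and of these Bnip3 and Pfkfb3 held the motif while Adm, Aldoc and Eno2 did not; a match is a description, and its absence says only that the letters are not in this window. The 250 bases before the start are shown for both that held it, with the motif in capitals (in Bnip3 the motif and its reverse complement overlap, 108 and 107 bases before the start). Bnip3 lies at chr7:138909507-138909756 and Pfkfb3 at chr2:11553930-11554179, both on the minus strand.
Bnip3: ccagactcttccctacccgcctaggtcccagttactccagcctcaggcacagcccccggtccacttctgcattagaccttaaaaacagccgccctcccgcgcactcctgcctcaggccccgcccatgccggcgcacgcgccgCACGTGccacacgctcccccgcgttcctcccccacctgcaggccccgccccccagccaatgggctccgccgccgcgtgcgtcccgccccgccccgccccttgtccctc
Pfkfb3: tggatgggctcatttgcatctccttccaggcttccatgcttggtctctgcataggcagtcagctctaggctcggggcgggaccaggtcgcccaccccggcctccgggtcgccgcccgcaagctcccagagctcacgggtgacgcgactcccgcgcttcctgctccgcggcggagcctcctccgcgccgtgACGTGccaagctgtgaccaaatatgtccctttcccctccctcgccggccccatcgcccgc

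Metallothioneins, small proteins that bind zinc and copper, were low in mitotic cells, with 2 of 5 zinc-response genes called lower and 0 (0, 1, 1, 1) higher. Mt1 stood at 1025 and 1846 CPM in asynchronous cells and 150.1 and 204 CPM in mitotic cells (log2 change -3.02 ± 0.34, adjusted p = 0.00335) and Mt2 at 709 and 1236 CPM in asynchronous cells and 134 and 187 CPM in mitotic cells (log2 change -2.60 ± 0.32, adjusted p = 0.00462). Asynchronous replicates differed from each other but both were several times above the mitotic and G1 libraries (228 to 247 CPM for Mt1 in G1). Some genes of lysosomes, interferon responses and sterol synthesis fell as well, beside 12.7% lower over all genes tested. Of 24 lysosomal genes 9 (2, 2, 15, 13) fell and 0 (0, 0, 2, 0) rose, among them Neu1, a sialidase (79.1 and 98.8 against 20.5 and 24.0 CPM, log2 change -1.996 ± 0.23, adjusted p = 0.00378), and Hexa, a hexosaminidase (227 and 329 against 73.5 and 101 CPM, log2 change -1.67 ± 0.27, adjusted p = 0.00964). Of 19 interferon and MHC class I genes 4 (4, 3, 7, 6) fell and 0 (0, 0, 0, 1) rose, with Irf1, an interferon-induced transcription factor, at 53.6 and 45.2 CPM in asynchronous cells and 16.7 and 13.0 CPM in mitotic cells. Its groups did not overlap. Of 24 genes of cholesterol synthesis 5 (0, 1, 10, 10) fell and 1 (0, 0, 1, 2) rose, led by Insig1, which retains the sterol sensor in the ER, at 143 and 141 CPM in asynchronous cells and 55.1 and 72.7 CPM in mitotic cells. The call was lost for Insig1 without mitotic replicate 1 (adjusted p = 0.162).

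Genes of the amino acid response, driven by the factor ATF4 when translation is stressed, moved in both directions. Of 28 tested 6 (3, 4, 6, 6) rose and 6 (5, 6, 10, 6) fell. Stc2, a secreted glycoprotein of stressed cells, stood at 76.2 and 72.7 CPM in asynchronous cells and 3.46 and 4.83 CPM in mitotic cells (log2 change -4.16 ± 0.27, adjusted p = 0.000996). Ddit3, the stress factor CHOP, stood at 82.7 and 102 CPM in asynchronous cells and 14.9 and 16.9 CPM in mitotic cells (log2 change -2.53 ± 0.23, adjusted p = 0.00204). Both mitotic libraries lay well below both asynchronous ones. Chac1, which degrades glutathione, stood at 10.8 and 10.4 CPM in asynchronous cells and 0.835 and 0.967 CPM in mitotic cells. Slc7a3, a carrier of basic amino acids, rose from 56.0 and 74.0 to 249 and 302 CPM (log2 change 2.08 ± 0.23, adjusted p = 0.00339), Cth, which makes cysteine, from 69.8 and 46.3 to 198 and 157 CPM, and Atf3, a stress-induced factor, from 5.30 and 6.45 to 15.2 and 20.3 CPM. G1 cells were near mitotic cells for Stc2 and Slc7a3, at 3.82 to 5.35 and 289 to 314 CPM.

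Several chaperones of the endoplasmic reticulum (ER) rose. Of 19 tested 7 (2, 3, 10, 12) rose and 0 fell, with a summed level of 4699 and 5000.1 CPM in asynchronous cells, 8146 and 8376 CPM in mitotic cells and 8098 to 8256 CPM in the G1 libraries. Hspa5 (ENSMUSG00000026864, chr2:34771970-34777547, plus strand), the ER chaperone BiP, stood at 433 and 485 CPM in asynchronous cells and 1505 and 1511 CPM in mitotic cells (log2 change 1.72 ± 0.19, adjusted p = 0.00335). Pdia4, a disulphide isomerase, stood at 145 and 127 CPM in asynchronous cells and 332 and 342 CPM in mitotic cells (log2 change 1.31 ± 0.19, adjusted p = 0.00772). Both had close replicates in each group. In the cytosol 6 (3, 2, 7, 12) of 22 heat shock genes rose and 1 (0, 0, 2, 1) fell, led by Hsph1, a nucleotide exchange factor of HSP70, at 111 and 162 CPM in asynchronous cells and 426 and 599 CPM in mitotic cells (log2 change 1.91 ± 0.27, adjusted p = 0.00704). Dnaja1, a cochaperone, stood at 32.8 and 35.7 CPM in asynchronous cells and 84.7 and 89.6 CPM in mitotic cells (log2 change 1.35 ± 0.20, adjusted p = 0.00822).

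A number of ribosome biogenesis genes rose. Of 40 genes 18 (3, 3, 23, 26) rose and 0 fell, with a median log2 change of 0.58. The summed level was 9616 and 10892 CPM in asynchronous cells, 14366 and 14593 CPM in mitotic cells and 13786 to 14182 CPM in the G1 libraries. Asynchronous libraries were lowest in total. Ddx21, a helicase of ribosomal RNA transcription and processing, stood at 233 and 165 CPM in asynchronous cells and 634 and 594 CPM in mitotic cells (log2 change 1.63 ± 0.23, adjusted p = 0.00695). Polr1b, a core subunit of RNA polymerase I, stood at 80.0 and 91.0 CPM in asynchronous cells and 189.9 and 197 CPM in mitotic cells (log2 change 1.18 ± 0.19, adjusted p = 0.0104). Replicates were close for Polr1b and wider apart in asynchronous cells for Ddx21. Noc3l, a nucleolar assembly factor, stood at 36.9 and 22.5 CPM in asynchronous cells and 84.4 and 79.1 CPM in mitotic cells (log2 change 1.46 ± 0.28, adjusted p = 0.0154). Groups lay apart for each of the 3, while the list as a whole moved by less than these.

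Counts for other housekeeping systems follow, against 8.55% higher and 12.7% lower over all genes tested. Of 34 translation initiation factors 5 (0, 2, 7, 12) rose and 1 (0, 0, 5, 1) fell, of 24 SR splicing factors and CLK kinases 5 (0, 0, 11, 6) and 1 (1, 1, 1, 3), of 28 genes of nuclear pores, import and lamina 3 (0, 0, 12, 6) and 2 (1, 0, 3, 3), of 31 proteasome subunits 1 (0, 0, 4, 12) and 0, and of 20 cytosolic tRNA synthetases 0 (0, 0, 1, 2) and 1 (0, 0, 2, 1). Of 28 genes of mRNA decay 5 (1, 1, 11, 6) rose and 1 (1, 1, 2, 2) fell, and of 16 NRF2 targets and pentose phosphate enzymes 2 (0, 1, 4, 4) and 2 (0, 0, 7, 2). None of 14 subunits of the chaperonin CCT and prefoldin, which fold tubulin and actin, was called, at a median log2 change of 0.17. For replication, 5 (0, 0, 12, 9) of 40 genes rose and 1 (0, 0, 3, 1) fell, and for nucleotide synthesis 4 (0, 1, 6, 7) and 0 (0, 0, 1, 0) of 28. Rsrp1, a splicing-related protein, was the splicing gene called lower, at 289 and 296 CPM in asynchronous cells and 69.2 and 75.3 CPM in mitotic cells (log2 change -2.02 ± 0.19, adjusted p = 0.00235), with 177 to 192 CPM in G1.

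Signalling genes were called in both directions. Of 18 genes of the BMP and TGF-beta response 3 (0, 2, 3, 3) rose and 6 fell. Lefty1, the Nodal antagonist, stood at 151 and 166 CPM in asynchronous cells and 15.4 and 27.9 CPM in mitotic cells (log2 change -2.88 ± 0.31, adjusted p = 0.00326). It was low in both mitotic libraries. Id1, the main direct target of BMP, went the other way, from 14.3 and 10.8 to 55.6 and 29.6 CPM (log2 change 1.76 ± 0.35, adjusted p = 0.0172). Of 14 Wnt target genes 4 (3, 1, 3, 4) rose and 3 (3, 2, 4, 5) fell: Notum, a feedback inhibitor of Wnt, went from 8.92 and 11.4 to 51.9 and 51.1 CPM (log2 change 2.34 ± 0.24, adjusted p = 0.00293) and Lef1, a nuclear effector, from 37.4 and 35.5 to 6.51 and 6.28 CPM (log2 change -2.51 ± 0.24, adjusted p = 0.00234). The call was lost for Id1 without mitotic replicate 1 (adjusted p = 0.0711).

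Feedback genes of the ERK pathway, which the MEK inhibitor in the medium restrains, were called in both directions: of 15 tested, 5 (4, 4, 9, 6) rose and 1 (0, 0, 1, 2) fell. Over all genes tested 8.55% were higher and 12.7% lower, and the share of this list called lower was no larger than that. Phlda1, an ERK-induced protein, stood at 2.34 and 2.33 CPM in asynchronous cells and 14.1 and 13.3 CPM in mitotic cells (log2 change 2.55 ± 0.28, adjusted p = 0.00335). Its replicates were nearly equal within each group. Spry4, an inhibitor of receptor signalling, stood at 0.857 and 1.78 CPM in asynchronous cells and 9.18 and 6.68 CPM in mitotic cells (log2 change 2.60 ± 0.44, adjusted p = 0.0112) and 42.0 and 44.9 CPM in early G1. Spry4 was thus highest after release. Of 25 immediate early genes 5 (2, 3, 6, 4) rose and 8 (5, 5, 11, 11) fell. Ier3, a survival protein, stood at 71.9 and 71.5 CPM in asynchronous cells and 9.47 and 8.48 CPM in mitotic cells (log2 change -3.00 ± 0.23, adjusted p = 0.00151). Its groups lay far apart. Gadd45g, a stress protein, stood at 20.1 and 27.5 CPM in asynchronous cells and 2.92 and 1.89 CPM in mitotic cells. Maff, a small basic-zipper factor, stood at 32.4 and 33.7 CPM in asynchronous cells and 6.89 and 5.76 CPM in mitotic cells. Both fell. Zfp36l1, which destabilises messages with AU-rich elements, stood at 15.0 and 14.8 CPM in asynchronous cells and 53.8 and 37.5 CPM in mitotic cells (log2 change 1.62 ± 0.26, adjusted p = 0.00978). Myc, a driver of growth, stood at 3.39 and 1.04 CPM in asynchronous cells and 21.3 and 13.1 CPM in mitotic cells (log2 change 2.93 ± 0.55, adjusted p = 0.0146), with 43.7 and 41.6 CPM in early G1.

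Among 28 targets of p53, 9 (3, 4, 11, 9) rose and 3 (1, 1, 4, 3) fell, at a median log2 change of 0.14. Trp53, the gene of p53 itself, stood at 207 and 162 CPM in asynchronous cells and 577 and 456 CPM in mitotic cells (log2 change 1.49 ± 0.23, adjusted p = 0.00856). Perp, an effector of cell death, stood at 24.3 and 21.7 CPM in asynchronous cells and 54.4 and 62.8 CPM in mitotic cells (log2 change 1.35 ± 0.22, adjusted p = 0.01). Both mitotic libraries were high for either gene. Plk2, a stress-induced kinase, stood at 39.0 and 28.7 CPM in asynchronous cells and 94.8 and 84.0 CPM in mitotic cells (log2 change 1.40 ± 0.24, adjusted p = 0.0111). Cdkn1a, the cell cycle inhibitor p21, went the other way at 169 and 267 CPM in asynchronous cells and 47.5 and 71.3 CPM in mitotic cells (log2 change -1.88 ± 0.31, adjusted p = 0.01), and G1 cells held 139 to 189 CPM. The targets Perp and Plk2 thus lay on the other side from the target Cdkn1a. Groups lay apart for each of these and for Trp53.

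A pair of genes of xenobiotic metabolism that share a regulator, the aryl hydrocarbon receptor, moved oppositely. Cyp1a1 (ENSMUSG00000032315, chr9:57687928-57703824, plus strand), a monooxygenase, had 4 and 2 counts in asynchronous libraries and 132 and 215 in mitotic ones, a ratio of 56.7 after scaling with a 95% counting interval (exact binomial) of 25.8 to 156 (adjusted p = 0.00217). It reached 16.7 and 16.1 CPM in early and 23.0 and 21.1 CPM in late G1. It thus stayed above the asynchronous level after release. Cyp1b1, its relative, fell from 12.1 and 10.6 to 1.17 and 1.98 CPM (log2 change -2.85 ± 0.36, adjusted p = 0.00484). Of 9 tested genes of this list 2 (1, 2, 3, 2) rose and 1 (1, 1, 2, 1) fell. The receptor binds the core GCGTG, which occurred, on either strand, in 49.8% of tested genes with a promoter window and differs from ACGTG in its first letter. The 250 bases before the start of Cyp1a1 (chr9:57697363-57697612, plus strand) hold it once, 54 bases before the start, shown in capitals.
Cyp1a1: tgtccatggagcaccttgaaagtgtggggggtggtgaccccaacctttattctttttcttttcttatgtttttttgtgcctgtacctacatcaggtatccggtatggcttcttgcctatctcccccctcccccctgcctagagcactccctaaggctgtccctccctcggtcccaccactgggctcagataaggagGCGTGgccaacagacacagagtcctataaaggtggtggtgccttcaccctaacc

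**Figure D4:**
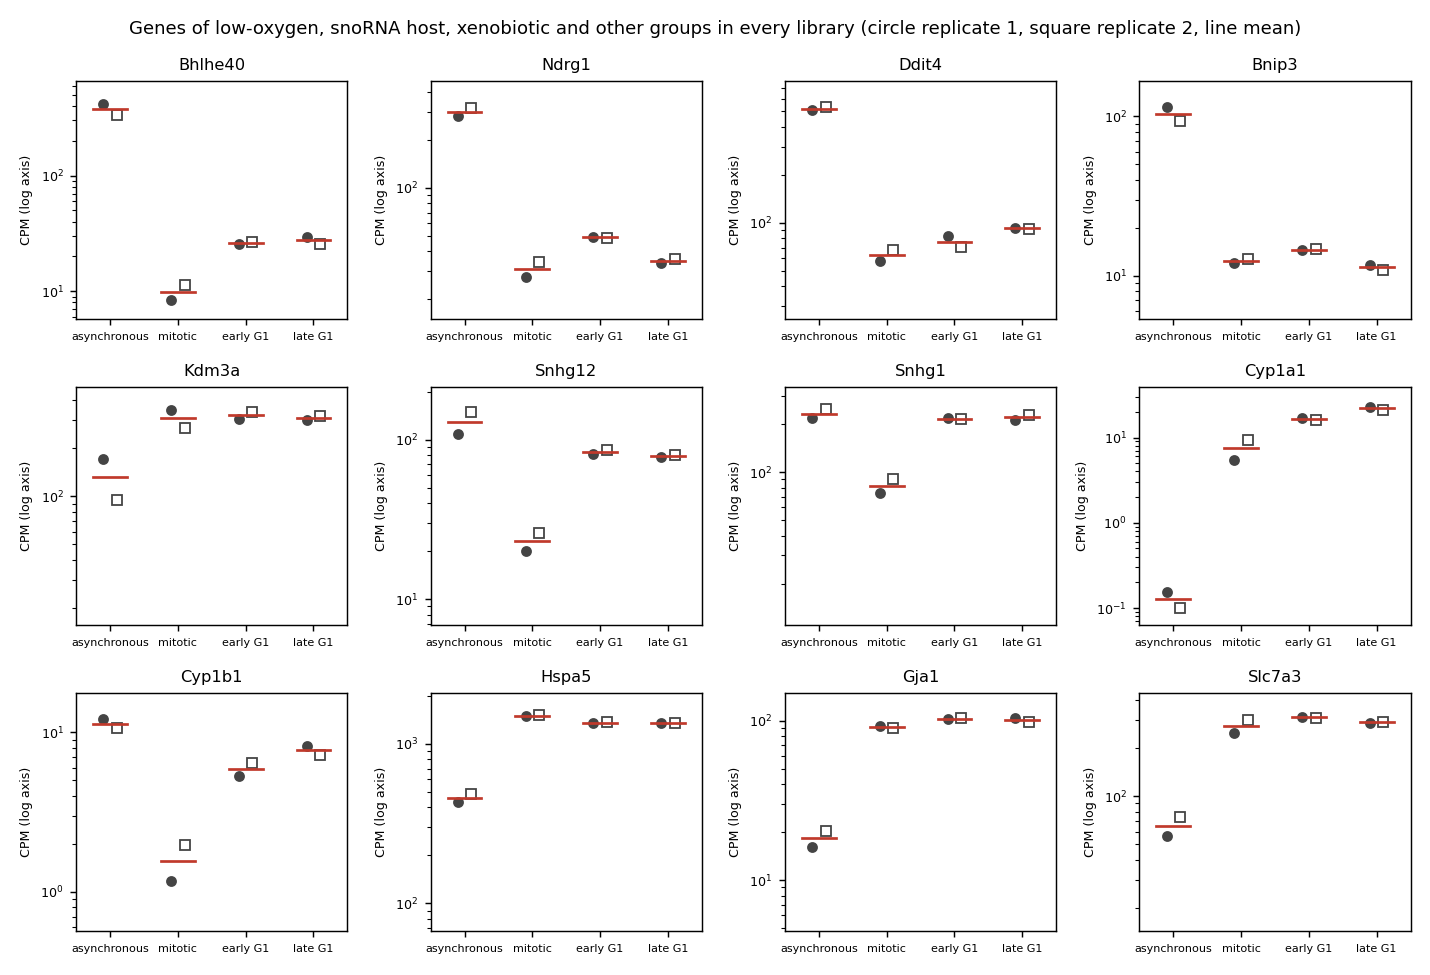
Levels in CPM (logarithmic axis) of 12 genes of the low-oxygen, small nucleolar RNA host, xenobiotic, ER chaperone and other lists in every library; circles are replicate 1, squares replicate 2 and red lines group means. Bhlhe40, Ndrg1, Ddit4 and Bnip3 were low in mitotic and G1 libraries alike, Snhg1 and Snhg12 were lowest in mitotic ones, and Cyp1a1, Hspa5, Gja1 and Slc7a3 were lowest in asynchronous ones.

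Some naive pluripotency genes rose. Of 29 tested 11 (5, 7, 14, 16) rose and 3 (1, 0, 5, 4) fell. Nr0b1, the repressor DAX1, stood at 15.2 and 17.3 CPM in asynchronous cells and 96.0 and 98.8 CPM in mitotic cells (log2 change 2.58 ± 0.22, adjusted p = 0.00183). Dppa2, a chromatin factor of early embryos, stood at 34.0 and 45.6 CPM in asynchronous cells and 141 and 124 CPM in mitotic cells (log2 change 1.74 ± 0.23, adjusted p = 0.00565). Neither gene overlapped between the groups. Gbx2, a homeobox factor downstream of LIF, stood at 1.99 and 2.03 CPM in asynchronous cells and 9.77 and 7.34 CPM in mitotic cells (log2 change 2.09 ± 0.33, adjusted p = 0.00893). Nanog, a core pluripotency factor, stood at 627 and 584 CPM in asynchronous cells and 904 and 1014 CPM in mitotic cells, and Dppa3, the maternal factor STELLA, fell from 33.2 and 28.4 to 13.6 and 9.10 CPM. Leaving fibroblast and contractile genes out of the scaling gave 3876 calls in place of 3883. That step changes the scaling alone and leaves any fibroblast RNA in the counts of other genes. What part such RNA has in the naive pluripotency rises was not tested. In the two-cell-like list Usp17le (0.818 and 0.446 against 3.09 and 2.24 CPM) and Eif1a were called, beside 8.55% higher over all genes tested. Eif1a also counts as a translation initiation factor here, and no Zscan4 or Tcstv gene was called. Of 15 genes of the two-cell-like state 2 (1, 1, 6, 2) rose and 0 fell. Calls were lost for Nanog, Usp17le and Eif1a without mitotic replicate 1 and for Nanog, Dppa3 and Eif1a without mitotic replicate 2. Nanog also lost its call with a minimum count of 50 (adjusted p = 0.0598) and with upper-quartile scaling (adjusted p = 0.0679).

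Markers of other lineages were scattered, beside 8.55% higher and 12.7% lower over all genes tested. The shares called among mesoderm and neuroectoderm markers were near these. Of 9 trophoblast and simple epithelium markers 4 fell and 1 (0, 0, 1, 1) rose: Gata2, a zinc-finger factor, stood at 32.0 and 50.4 CPM in asynchronous cells and 5.68 and 4.75 CPM in mitotic cells (log2 change -2.98 ± 0.31, adjusted p = 0.003). The keratins Krt19 and Krt7 were lower as well (51.2 and 96.5 against 10.9 and 10.7 CPM for Krt19). Of 13 primitive endoderm markers 4 rose and 1 (0, 1, 3, 2) fell, with Sox7 at 0.195 and 0.397 CPM in asynchronous cells and 3.30 and 4.61 CPM in mitotic cells (log2 change 3.75 ± 0.50, adjusted p = 0.00593). Asynchronous levels of Sox7 were close to the floor of 3 counts. Of 7 endothelial markers 4 (2, 2, 3, 3) rose and 2 (2, 1, 2, 2) fell: Kdr, the receptor of VEGF, went from 0.623 and 0.595 to 4.47 and 5.49 CPM (log2 change 3.02 ± 0.38, adjusted p = 0.0048) and Vwf, the von Willebrand factor, from 16.2 and 32.1 to 3.38 and 3.82 CPM (log2 change -2.74 ± 0.38, adjusted p = 0.00665). Of 11 mesoderm and neuroectoderm markers 1 rose and 1 (0, 2, 2, 0) fell, with Pax6, an eye and neural factor, at 1.56 and 0.694 CPM in asynchronous cells and 8.06 and 4.70 CPM in mitotic cells.

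Some cell contact genes were called higher and some lower, beside 8.55% higher and 12.7% lower over all genes tested. The share of adhesion genes called lower, and that of gap junction and Notch genes called higher, were near these. Of 29 adhesion genes 5 (1, 5, 10, 7) rose and 3 (2, 2, 6, 7) fell. Cldn7, a tight junction protein, stood at 38.0 and 27.9 CPM in asynchronous cells and 5.01 and 2.505 CPM in mitotic cells (log2 change -3.13 ± 0.39, adjusted p = 0.00451). Jup, the desmosomal protein plakoglobin, stood at 115 and 108 CPM in asynchronous cells and 345 and 265 CPM in mitotic cells (log2 change 1.46 ± 0.21, adjusted p = 0.00774). These junction genes thus moved in opposite directions. Gja1, the gap junction protein connexin 43, stood at 16.1 and 20.4 CPM in asynchronous cells and 92.5 and 89.3 CPM in mitotic cells (log2 change 2.32 ± 0.23, adjusted p = 0.00253). Of 14 gap junction and Notch genes 1 (1, 1, 3, 1) rose and 3 (2, 3, 3, 6) fell, among them Hes1, the main effector of Notch, from 57.4 and 64.9 to 16.0 and 20.3 CPM (log2 change -1.75 ± 0.24, adjusted p = 0.00597), and Dll1, a Notch ligand, from 32.5 and 11.998 to 3.51 and 2.90 CPM (log2 change -2.80 ± 0.49, adjusted p = 0.0123).

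Among called protein-coding genes that averaged a log2 CPM of 2 or more, the 10 largest rises included Marco, Aoah, Myc and genes of varied function. Enox1, an oxidase of the cell surface, stood at 6.04 and 5.31 CPM in asynchronous cells and 105 and 64.0 CPM in mitotic cells (log2 change 3.89 ± 0.32, adjusted p = 0.00172) and at 75.2 to 77.3 CPM in G1. Ano1, a chloride channel, stood at 0.351 and 0.446 CPM in asynchronous cells and 8.35 and 9.62 CPM in mitotic cells (log2 change 4.49 ± 0.38, adjusted p = 0.00183). Fgfbp1, a carrier of fibroblast growth factors, stood at 3.51 and 4.86 CPM in asynchronous cells and 44.8 and 35.5 CPM in mitotic cells (log2 change 3.27 ± 0.29, adjusted p = 0.00199). Asynchronous levels of all these genes were low. G1 libraries were near the mitotic level for Fgfbp1 (33.3 to 38.0 CPM) and lower for Ano1 (3.63 to 4.50 CPM). These genes share no list used here. Among the most abundant rises were Actb, cytoplasmic beta-actin, at 1783 and 3088 CPM in asynchronous cells and 5482 and 6124 CPM in mitotic cells (log2 change 1.25 ± 0.28, adjusted p = 0.0245). Trim28, a corepressor of retroelements, stood at 1532 and 2107 CPM in asynchronous cells and 3662 and 3611 CPM in mitotic cells (log2 change 1.00 ± 0.22, adjusted p = 0.0227). Calls were lost for Actb and Trim28 without either mitotic replicate (adjusted p from 0.0548 to 0.188).

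**Figure D5:**
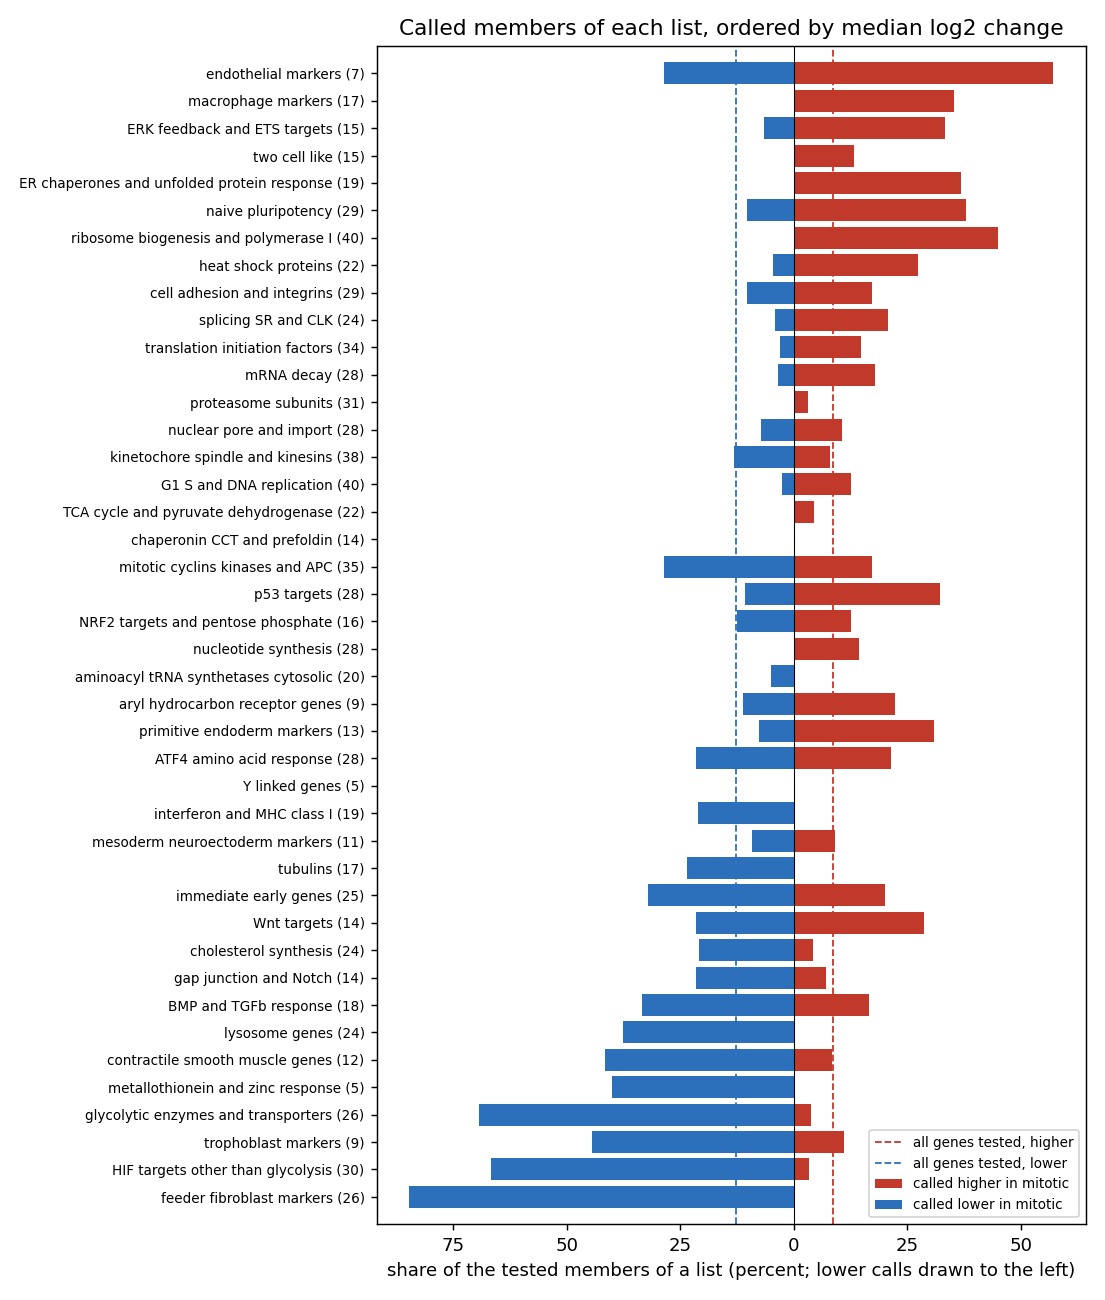
For each gene list (number of tested members in parentheses), bars to the right give the percent of members called higher in mitotic cells and bars to the left the percent called lower; dashed lines mark the same shares over all genes tested, 8.55% and 12.7%. Lists are ordered by median log2 change, from fibroblast markers, HIF targets, trophoblast markers and glycolysis at the low end to macrophage and endothelial markers at the high end.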

How the data were processed

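Libraries of poly(A) RNA were made with a stranded kit and sequenced per the labels' protocols. The submitters' processing notes name TopHat2, SAMtools, HTSeq and the build mm10. The authors deposited raw counts per Ensembl gene for all 8 libraries. Neither the strand setting nor the annotation release is given in the sources used here. Symbols, biotypes and coordinates came from GENCODE M21 (GRCm38) for 54809 of 54838 genes.

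From the deposited counts, genes with about 10 or more counts in a group of libraries (filterByExpr) were kept, scaled to CPM by TMM factors and tested in edgeR 4.0.16 (robust quasi-likelihood fit of the 4 libraries, two-sided, R 4.3.3). Benjamini-Hochberg adjustment ran over all 18245 genes tested and a gene was called at an adjusted p under 0.05. Residual degrees of freedom were 2. The script was tested on simulated data. It called 17 of 100 genes with a simulated 2-fold change, 80 of 100 with a 4-fold change and 21 of 17572 with none. Thus 21 false calls stood beside 17 and 80 true ones, so a called gene may also be unchanged. A gene that was not called may likewise still differ, above all by 2-fold or less. The simulation changed 100 genes of each size, while 3883 were called in the data, so its shares need not hold here. A fit of all 8 libraries called 7767 genes; the fit of 4 was chosen because the spread between replicates differs among the states, with both counts already known. P-values measure the spread between the libraries, which are 2 clones at most.

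Members and the 42 gene lists were chosen with earlier results of these data known. Genes named were, per list, the 3 called members with the smallest p in the main direction and 1 in the other. Added to these were the 10 largest protein-coding and 4 largest noncoding changes each way, the 6 most abundant called genes and the 3 with the smallest p each way. The collagen, Snhg and small nucleolar RNA groups, Top2a and further list members were chosen after their values were seen. Some genes that the rule picks are not reported here. Group levels in G1 carry no test. DESeq2 1.42.0 was one of 14 alternatives.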

Additional observations from a re-analysis of the deposited data

How the results depend on the processing

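Fits of 18245 genes gave 3883 calls with 1560 higher and 2323 lower. All 8 libraries in one fit gave 7767 (3487 higher and 4280 lower), and 11017 (5219 and 5798, with 1707 higher by at least 2-fold) with a term for replicate 1 of both groups. Without a filter on low counts 2520 genes were higher, and with a minimum count of 50 the genes higher by at least 2-fold numbered 710 in place of 1072. Leaving out 1 library gave 1679 to 6896 calls, 515 to 3211 higher, 1164 to 3685 lower, 515 to 1813 higher by at least 2-fold and 1164 to 2654 lower by at least 2-fold. The lone library of a group was then assumed to vary like the other group. The low ends came without mitotic replicate 1 and the high ends without asynchronous replicate 1. The share of calls that were higher was 40.2%, 32.9% with upper-quartile scaling and 30.7% without mitotic replicate 1. DESeq2 called 4312. The causes of these shifts were not tested.

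With the replicate number as a block, 8562 genes were called (4081 higher and 4481 lower, 1689 higher by at least 2-fold). Deviations of same-numbered mitotic and asynchronous libraries correlated at 0.624 over 11786 genes. This was the highest value over all pairs of groups, which ran down to -0.385, and other pairs do not bear on this one. Y-linked genes were also higher in replicate 1 of both groups. The labels do not tie a number to a clone, so the numbers were not used to pair libraries. The main fit thus leaves out a pairing that may be present.

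Of 333 genes followed through the alternatives, including list members and the genes named by rule, 155 lost their call without mitotic replicate 1 and 144 without mitotic replicate 2. Upper-quartile scaling ended 32 calls, a minimum count of 50 ended 29 of 322, and DESeq2 ended 6. None changed direction. Depth limits genes near 3 counts, or 0.117 to 0.149 CPM.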
